A study of Mus musculus with 15 samples.

Results

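The control embryos fell into 2 sets by the level of *Rps2-ps13*, a pseudogene copy of the ribosomal protein gene *Rps2*. Of the 15 whole-embryo libraries of the series, 12 were controls, and 4 of these 12 held more than 1000 CPM of *Rps2-ps13*. CPM here is the number of unique molecular identifiers (UMIs) of a gene per 1000000 UMIs, summed over the retained cells of a library. The other 8 lay below that limit. The lowest library inside it held 2186 CPM and the highest library outside it 33.1 CPM. The 4 libraries were chosen by this measured level, so it is given as a description and without a test, and so are the levels of *Rps2* and of its other copies, which can exchange reads with it.

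Each library came from 1 whole embryo between E6.0 and E7.75, dissociated and profiled by 5′ droplet single-cell RNA sequencing. All embryos were on a C57BL/6J background and were bred from males that carried *Mesp1* Cre, which drives recombination in the *Mesp1* lineage and disrupts *Mesp1* on its own allele, the *Rosa26R* Ai14 reporter and the *Smarcd3*-F6::eGFP enhancer transgene at *Hipp11*. Control embryos had at least 1 wild-type *Mesp1* allele, and whether a given control carried Cre was not in the labels used here. Dams were wild type, *Mesp1* Cre/+ or triple transgenic. Libraries are named by genotype, age, replicate and the experiment number of the library name, which the sources used here do not tie to a sequencing pool.

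The 4 libraries above the limit were E6.0 replicate 3 and late E6.0 of experiment 8, and late E6.5 and late E7.5 replicate 1 of experiment 7. The 8 libraries below it were E6.0 replicates 1 and 2 of experiment 6, E6.5, E7.0, early E7.5 and E7.75 replicate 2 of experiment 7, late E7.5 replicate 2 of experiment 4 and E7.75 replicate 1 of experiment 5. All developmental stages used here (early, E6.0 to E6.5; middle, late E6.5 to early E7.5; late, late E7.5 to E7.75) held both kinds of library, with 2 above against 3 below in early embryos, 1 against 2 in middle embryos and 1 against 3 in late embryos. Experiment 7 was the only experiment with both kinds of control, 2 above and 4 below. Experiment 8 held no control below the limit, and experiments 4, 5 and 6 held none above it. In experiment 7 the embryo above the limit was also the younger one within its stage, late E6.5 against E7.0 and early E7.5, and late E7.5 against E7.75, so age and the split cannot be told apart there.

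*Rps2* encodes a protein of the small ribosomal subunit and is among the most abundant transcripts of a growing cell. Processed pseudogenes such as *Rps2-ps13* arise when a spliced mRNA is copied back into the genome, and ribosomal protein genes have many of them. A young copy can stay nearly identical to its parent, and a read can then be assigned to its locus only by the bases that differ.

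The beginning of *Rps2-ps13* and the same stretch of *Rps2* are shown because the split rests on telling them apart. *Rps2-ps13* lies on chromosome X at chrX:52898588-52899469 on the plus strand (GRCm38, GENCODE M21), and its transcript is 882 bases long. *Rps2* lies on chromosome 17 at chr17:24718116-24721929, also on the plus strand. The whole copy aligned without gaps to bases 167 to 1048 of the *Rps2* transcript, which begin with ATG and hold no stop codon before the last. It matched in all but 7 of 882 bases, an identity of 99.2%. Capitals mark bases that differ between them, and the *Rps2-ps13* stretch is chrX:52898588-52898887.
Rps2-ps13: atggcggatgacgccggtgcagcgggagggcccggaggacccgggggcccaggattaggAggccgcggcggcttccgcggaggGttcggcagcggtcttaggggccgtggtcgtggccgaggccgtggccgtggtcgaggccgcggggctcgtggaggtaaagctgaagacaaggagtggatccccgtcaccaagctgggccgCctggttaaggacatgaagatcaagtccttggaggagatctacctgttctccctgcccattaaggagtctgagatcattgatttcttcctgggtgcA
Rps2: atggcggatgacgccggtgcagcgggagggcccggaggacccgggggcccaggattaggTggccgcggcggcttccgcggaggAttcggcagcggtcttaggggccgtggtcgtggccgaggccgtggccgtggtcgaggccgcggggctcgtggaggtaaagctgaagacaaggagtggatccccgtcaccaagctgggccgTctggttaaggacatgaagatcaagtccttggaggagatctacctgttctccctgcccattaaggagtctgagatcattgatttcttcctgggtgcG

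Counted from the A of ATG, with the base of *Rps2* first, the 7 differences were T60A, A84G, T204C, G300A, C444T, C453A and T756C. Each fell on the third base of a codon. Another processed copy, *Gm8841* (*Rps2-ps10* in GENCODE M21), differed from *Rps2* in 5 of the same 882 bases and from *Rps2-ps13* in only 2. The 5 differences of *Gm8841* were all shared with *Rps2-ps13*.

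In the 4 libraries above the limit *Rps2-ps13* reached 2186 CPM in E6.0 replicate 3, 2793 CPM in late E6.0, 2458 CPM in late E6.5 and 2425 CPM in late E7.5 replicate 1. In the 8 libraries below it the levels were 5.74 and 6.88 CPM in E6.0 replicates 1 and 2, 2.55 CPM in E6.5, 1.76 CPM in E7.0, 2.01 CPM in early E7.5, 33.1 CPM in late E7.5 replicate 2, and 2.49 and 2.11 CPM in E7.75 replicates 1 and 2. No library lay between 33.1 and 2186 CPM. The 3 *Mesp1* KO libraries, which the rule did not use, held 3.15 CPM at E6.5, 2.91 CPM at E7.0 and 2.62 CPM at late E7.5. The first 2 of these came from experiment 8, whose control embryos were both above the limit.

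*Rps2* itself was lowest among the controls in the 4 libraries above the limit, but some libraries below it came close. It measured 4948, 4660, 4806 and 4878 CPM in the 4 libraries above the limit, in the order given above, and 5006 to 8762 CPM in the 8 below, so the sets did not overlap. Of the 8, E6.0 replicate 2, early E7.5 and E7.75 replicates 1 and 2 held 5334, 5006, 5254 and 5258 CPM. E6.0 replicate 1, E6.5, E7.0 and late E7.5 replicate 2 held 7576, 7429, 8762 and 8331 CPM. The 3 *Mesp1* KO libraries held 8750, 8400 and 4460 CPM of *Rps2*. A low *Rps2* level was thus not particular to the libraries above the limit.

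*Gm8841* followed a pattern of its own among the libraries below the limit. It reached 953 and 523 CPM in E6.0 replicates 1 and 2, 1297 CPM in early E7.5, and 2176 and 1149 CPM in E7.75 replicates 1 and 2. The other 3 controls below the limit (E6.5, E7.0 and late E7.5 replicate 2) held 0.567, 2.03 and 5.88 CPM. The 4 libraries above the limit held 12.6 to 15.3 CPM. Among the *Mesp1* KO libraries the late E7.5 embryo held 1428 CPM, and the E6.5 and E7.0 embryos 7.7 and 7.5 CPM. By these levels, which were seen before the sets were named, the controls held 4 libraries with *Rps2-ps13*, 5 with *Gm8841* and 3 low in both, and no library was high in both. Of the last 3, late E7.5 replicate 2 held *Rps2-ps13* in a small set of its cells.

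Summed over *Rps2* and both copies, the sets overlapped. The sum was 7150 to 7468 CPM in the 4 libraries above the limit and 5864 to 8766 CPM in the 8 below. *Rps2-ps13* took 30.6%, 37.4%, 33.8% and 33.1% of the UMIs of these 3 features in the 4 libraries above the limit, against 0.0201% to 0.395% in the other controls. *Gm8841* took 8.92% to 29.3% in its 5 controls and 24.2% in the late *Mesp1* KO library. The 4 other annotated copies of *Rps2* (*Rps2-ps4*, *Rps2-ps5*, *Rps2-ps6* and *Rps2-ps9*) stayed at or below 9.93 CPM in every library.

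**Figure D1:**
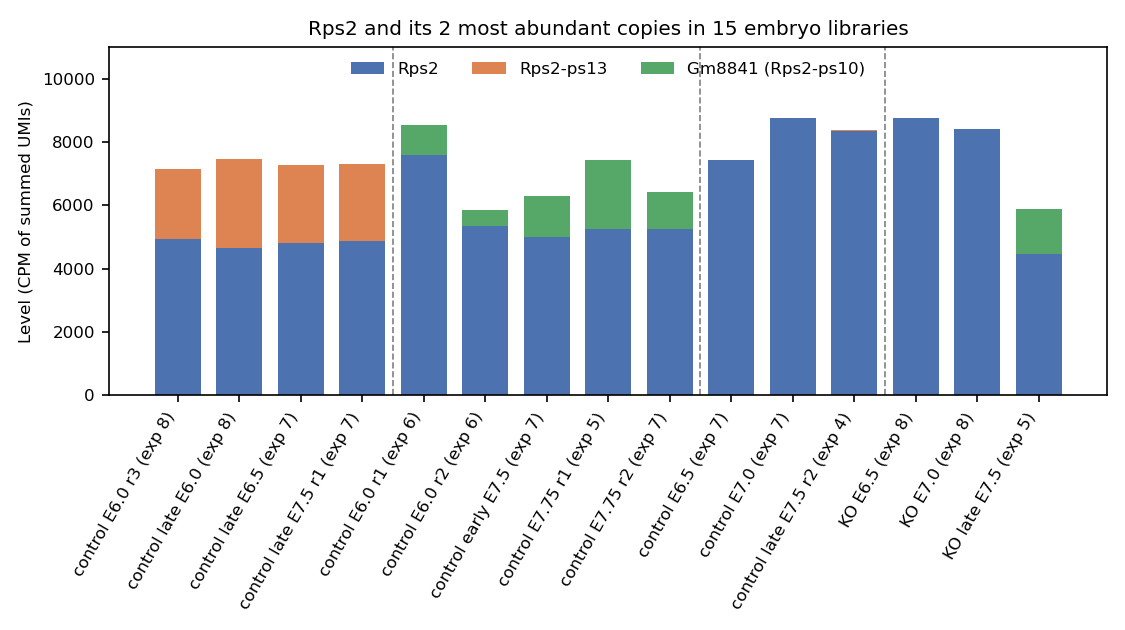
Stacked bars give the level of *Rps2*, *Rps2-ps13* and *Gm8841* in each of the 15 embryo libraries, as CPM of UMIs summed over retained cells. Dashed lines part the 4 controls above 1000 CPM of *Rps2-ps13*, the 5 controls with *Gm8841*, the 3 controls low in both and the 3 *Mesp1* KO libraries; *Rps2* is lowest among the controls in the first 4 bars (4660 to 4948 CPM).

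The 15 libraries held 93701 retained cells of 99474 deposited barcodes, 9684 of them in the 4 controls above the limit and 67797 in the 8 below. Retained UMIs ranged from 7383353 to 358439911 per library, so a count of 0 allowed up to 0.00837 to 0.406 CPM (3 counts; this covers counting error only). Pairs of libraries shared at most 451 cell barcodes, and at most 3.65% of the smaller library. *Mesp1* measured at most 0.0970 CPM in the 3 KO libraries.

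High *Rps2-ps13* was a property of nearly all cells of a library. Cells with at least 1 *Rps2-ps13* UMI made up 97.6% of 255 cells in E6.0 replicate 3 (95% Clopper-Pearson interval 94.9% to 99.1%), 98.5% of 531 in late E6.0 (97.1% to 99.3%), 98.3% of 2130 in late E6.5 (97.6% to 98.8%) and 98.7% of 6768 in late E7.5 replicate 1 (98.4% to 99.0%). The median cell of these libraries held 45.0 to 88.0 *Rps2-ps13* UMIs. Among cells with at least 5000 UMIs the shares were 100%, 100%, 99.9% and 100%. At a fixed depth of 2000 UMIs per cell the shares were 96.7% to 98.8%.

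In the other 11 libraries 1.03% to 13.5% of cells held a UMI of *Rps2-ps13*, which fell to 0.328% to 1.64% at 2000 UMIs per cell. In 10 of these 11 libraries no cell held more than 3 *Rps2-ps13* UMIs. No cell in any library held 5 or more UMIs of both *Rps2-ps13* and *Gm8841*. In the 5 controls with *Gm8841*, 92.7% to 99.2% of cells held a UMI of that copy.

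**Figure D2:**
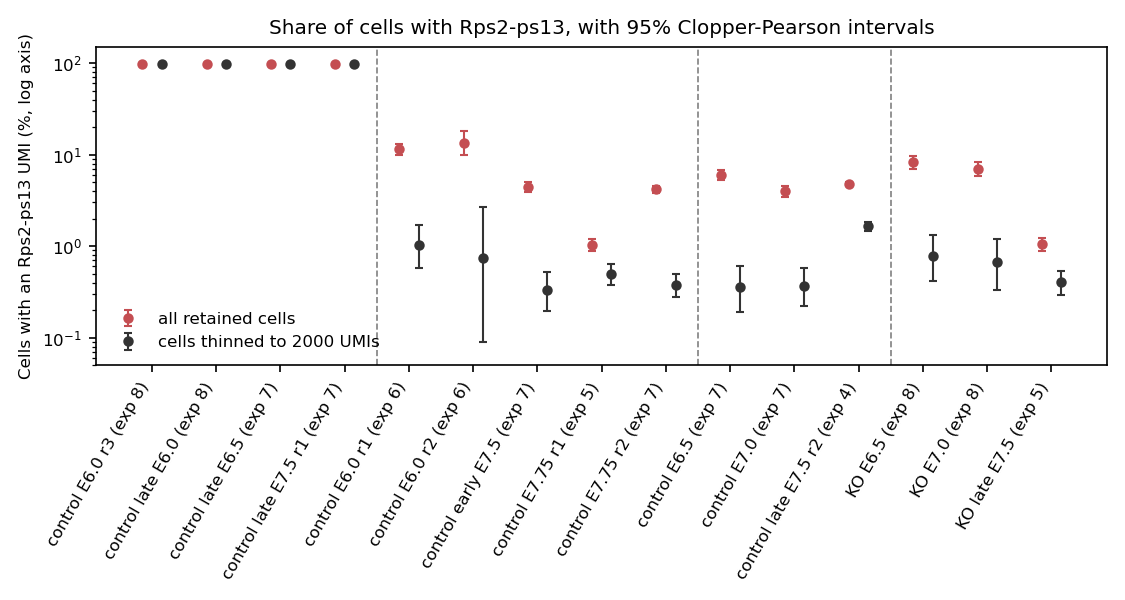
Points give the share of cells with at least 1 *Rps2-ps13* UMI in each library on a log axis in percent, over all retained cells (red) and after thinning each cell to 2000 UMIs (black), with 95% Clopper-Pearson intervals as bars. The 4 controls above the limit lie at 96.7% or higher in both, and the other 11 libraries at 13.5% or lower.

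The high level was found in cells of each of the 12 marker lists that could be followed in the libraries above the limit. Cells were called rich in a marker list when they held at least 10 UMIs of its genes and at least 1 per 1000 of their UMIs, and a list was used in a library with at least 50 such cells. Over 12 lists and 28 pairs of list and library above the limit, 96.7% to 100% of marker-rich cells held *Rps2-ps13*, at 1434 to 3086 CPM. Cells rich in epiblast genes (*Pou5f1*, *Utf1* and others), the pluripotent cells that form the embryo proper, held 2492 to 3020 CPM in the 4 libraries. Cells rich in visceral endoderm genes (*Ttr*, *Apoa1* and others), an extra-embryonic layer, held 1434 to 2132 CPM. Cells rich in cardiomyocyte genes held 2638 CPM and cells rich in blood genes 2463 CPM in late E7.5 replicate 1, the only library above the limit with enough of either. In the 11 other libraries the marker-rich cells held *Rps2-ps13* in 0% to 22.6% of cells, at 0 to 157 CPM.

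The 157 CPM came from blood-rich cells of late E7.5 replicate 2, which stood apart from the other libraries below the limit. In it, 196 of 22277 cells (0.880%) held 5 or more *Rps2-ps13* UMIs, and 164 of them held 12 or more. These cells, set apart after their values were seen, contained 91.5% of the 11865 *Rps2-ps13* UMIs of the library. Without them its level was 2.87 CPM, inside the range of the other controls below the limit. In the 196 cells *Rps2-ps13* measured 2339 CPM and *Rps2* 5348 CPM, against 2186 to 2793 and 4660 to 4948 CPM in the 4 libraries above the limit.

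The same 196 cells differed from the rest of their library in other features. Embryonic haemoglobin genes were high in them, with *Hba-x* at 15585 CPM against 2577 CPM in the other cells of the library and *Hbb-bh1* at 19713 against 3605 CPM. *Gata1*, a transcription factor of red cell formation, measured 122 against 25.4 CPM. The Y-linked gene *Ddx3y* was present in both, at 28.2 and 29.1 CPM. *Wdfy1*, known to vary between C57BL/6 sub-strains, measured 7.33 against 24.3 CPM. Of the barcodes of these cells, 0 to 5 were also found in any other library, with 3 in late E7.5 replicate 1. Their median depth was 25291 UMIs. The source of these cells was not tested.

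Which other genes differed was first tested with stage and experiment as covariates. In edgeR's quasi-likelihood fit on 17337 genes, 0 genes passed an adjusted p of 0.05 in either direction (0% of genes tested), and 799 had an unadjusted p below 0.05, which is 4.61% of the genes tested. The smallest adjusted p was 0.949. With experiment in the model the split was estimated from experiment 7 alone, from late E6.5 and late E7.5 replicate 1 against E7.0, early E7.5 and E7.75 replicate 2, which is 2 libraries against 3. E6.5 was the only early library of that experiment and did not bear on the estimate. DESeq2 with the same covariates called 47 genes, 16 higher (0.098%) and 31 lower (0.19%) of the 16328 genes that got an adjusted p. Of the 47, 3 lay on chromosome 17 and 2 on chromosome X, which held 856 and 716 of the 17337 genes fitted. Within 10 Mb of *Rps2-ps13*, 0 of 80 tested genes had an unadjusted p below 0.05 in the edgeR fit. Within 10 Mb of *Rps2* it was 22 of 343 (6.41%), against 4.61% of all genes tested. Around *H2-Bl*, a chromosome 17 gene described below, it was 26 of 331 (7.85%). The last 2 windows overlap, and these shares were not tested. The window around *H2-Bl* was placed after the values of that gene were seen, so its share is no result about the region.

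With stage as the only covariate, 3 genes were higher in the libraries above the limit (0.0173% of genes tested) and 0 were lower. They were *AL807777.1*, *H2-Bl* and *Gm9705*, of which *Gm9705* entered the fit only through the libraries above the limit. DESeq2 with stage only called 86 genes, 33 higher (0.192%) and 53 lower (0.308%), of which 14 lay on chromosome 17 and 6 on chromosome X. These chromosomes held 856 and 716 of the 17337 genes fitted. Genes such as *Gm9705*, which is among the 14, could pass the filter on low counts through the libraries above the limit alone. The 14 are thus no result about chromosome 17. Within experiment 7 alone, 1 gene passed (0.00552% of 18104 genes), *AL807777.1*. The experiments differ between the sets, so a call that only the stage-only fits make cannot be told apart from a difference between experiments. Inside experiment 7 *AL807777.1* measured 483 and 506 against 11.8 to 21.2 CPM and *H2-Bl* 2.70 and 4.13 against 0.252 to 0.691 CPM. Neither gene overlapped over all 12 controls, so the lack of overlap inside experiment 7 follows from that and adds no support. Age and the split cannot be told apart there either.

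*AL807777.1* (*Gm6472* in GENCODE M21) is a processed pseudogene of the ribosomal protein gene *Rps7*, at chrX:152909505-152910155 on the minus strand. It matched the *Rps7* transcript in all but 4 of 651 bases (99.4%). It measured 709 CPM in E6.0 replicate 3, 63.8 CPM in late E6.0, 483 CPM in late E6.5 and 506 CPM in late E7.5 replicate 1. The 8 libraries below the limit held 11.8 to 46.1 CPM and the 3 *Mesp1* KO libraries 21.6 to 41.4 CPM. So 3 of the 4 libraries above the limit were at least 483 CPM, and the fourth was close to the highest library below it. The log2 fold change was 4.62 (SE 0.52) with stage as the covariate (adjusted p = 0.0149) and 5.20 (SE 0.15) within experiment 7 (adjusted p = 0.00733). With stage and experiment it was 5.21 (SE 0.91) in edgeR, with an adjusted p of 0.949, and 5.20 (SE 0.96) in DESeq2, with an adjusted p of 0.000159. *Rps7*, its parent on chromosome 12, held 1754 to 2224 CPM in the 4 libraries and 1154 to 4147 CPM in the 8, so the levels of the parent overlapped. The stage-only call was kept without E6.0 replicate 2 or without late E6.0, and was lost when any of the other 10 libraries was left out.

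*H2-Bl* and *Gm9705* both lie on chromosome 17, the chromosome of *Rps2*. *H2-Bl*, a class I gene of the major histocompatibility complex (MHC) that the annotation lists as a polymorphic pseudogene, lies at chr17:36080115-36084223. The MHC, H2 in the mouse, is a cluster of genes best known for peptide presentation to T cells, and it is among the most variable parts of the genome. *H2-Bl* measured 3.12, 3.27, 2.70 and 4.13 CPM in the 4 libraries above the limit and 0.252 to 0.691 CPM in the 8 below. The *Mesp1* KO libraries held 0.123 to 0.194 CPM. The log2 fold change was 2.87 (SE 0.29; adjusted p = 0.00595) with stage as the covariate and 2.56 (SE 0.36; adjusted p = 0.949) with experiment added, both in edgeR. DESeq2 with stage and experiment gave 2.55 (SE 0.40; adjusted p = 1.71e-06). The stage-only call was lost without late E6.5 and without late E7.5 replicate 1, and kept when any of the other 10 libraries was left out.

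*Gm9705* (*Cyp4f37* in GENCODE M21), at chr17:32621309-32636184, is a cytochrome P450 gene of the Cyp4f family. Its calls rest on few UMIs, and it passed the filter on low counts only through the libraries above the limit, so its calls restate the values and support nothing. It had 3, 4, 8 and 35 UMIs in the 4 libraries above the limit, 1 UMI in late E7.5 replicate 2 and 0 in the 7 other controls and the 3 *Mesp1* KO libraries. The 0 UMIs of E6.0 replicate 2 allowed up to 0.382 CPM, above the 0.171 CPM of late E6.5. Late E7.5 replicate 1 held most of the UMIs.

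Levels were also compared without a model, as genes whose 4 libraries above the limit all lay above or all below the other 8. The 4 and the 8 are 1 of 495 ways to divide the 12 libraries so, and a gene that does not differ can fall this way, so the counts are a description and do not show that these genes differ with the split. Among 12820 genes with a mean above 1 CPM over the controls, *Rps2-ps13* left out, 20 were wholly higher (0.156%) and 7 wholly lower (0.0546%). The mean was taken over all 12 controls, so a gene could enter through the set in which it is high. Of the 20 higher genes, 5 averaged at most 1 CPM in the 8 libraries (*Msh5*, *H2-Q6*, *H2-Bl*, *Gm14292* and *Gm17709*), and of the 7 lower genes 2 averaged at most 1 CPM in the 4 (*Gm4425* and *Gm5113*). Among 12415 genes with a mean above 1 CPM in each set, 15 were higher and 5 lower. Chromosome 17 held 6 of the 27 among its 627 expressed genes (0.957%), chromosome 8 held 3 of 682 (0.440%) and chromosome X 2 of 496 (0.403%). The other chromosomes held between 0% and 0.313%, and *mt-Cytb*, of the mitochondrial genome, was also among them (2769 to 3089 against 1600 to 2576 CPM). On chromosome 17, 5 of the 6 lay between 30 and 40 Mb among 148 expressed genes, and the sixth was *Rps2*, which can exchange reads with *Rps2-ps13*. The 3 higher genes of chromosome 17 all entered through the libraries above the limit, and with a mean above 1 CPM required in each set *Rps2*, *Kank3* and *H2-D1* were left among 612 genes of the chromosome, so its share is no result about the chromosome. None of the 54 expressed genes within 10 Mb of *Rps2-ps13* was among the 27. Nor was any of the 81, 97 and 78 within 10 Mb of *Mesp1*, *Gt(ROSA)26Sor* and *Drg1*, which stand for the modified loci. At the shares over all genes (0.156% and 0.0546%) a count of 0 is likely in so few genes, so these counts are no result. Outside chromosome 17, *Malat1*, an abundant nuclear RNA of chromosome 19, measured 986 to 1499 CPM against 758 to 926 CPM, with 1085 to 1182 CPM in the *Mesp1* KO libraries. *Maged1*, on chromosome X, measured 133 to 151 CPM against 155 to 220 CPM.

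Around the MHC, genes without overlap lay on both sides. *H2-D1*, a classical class I gene, lay below, at 8.67, 9.02, 9.06 and 9.31 CPM against 10.3 to 18.2 CPM in the 8 libraries below the limit. *H2-Q6*, a non-classical class I gene, lay above, at 1.76, 3.21, 2.14 and 2.87 CPM against 0.502 to 1.26 CPM. In edgeR's fit with stage and experiment *H2-D1* had a log2 difference of -0.74 (SE 0.19; adjusted p = 0.973) and *H2-Q6* one of 1.62 (SE 0.45; adjusted p = 0.973), so neither passed. DESeq2 called both with stage only, *H2-D1* at -0.63 (SE 0.15; adjusted p = 0.0129) and *H2-Q6* at 1.49 (SE 0.29; adjusted p = 0.000573), and neither with experiment added. Both genes were picked for their levels without overlap, so these calls are no support. *Msh5*, of meiotic recombination, measured 1.09 to 1.54 against 0.719 to 0.979 CPM, and *Kank3* 2.98 to 4.39 against 4.69 to 7.28 CPM. The 3 *Mesp1* KO libraries, all below the limit, held 5.2 to 5.5 CPM of *Kank3*, inside the range of the 8 controls below it. Their *H2-Q6* level, 0.446 to 0.863 CPM, reached below that range, and their *Msh5* level, 0.987 to 0.993 CPM, lay between the ranges. Their *H2-D1* level, 7.2 to 11.5 CPM, reached from below the 4 libraries above the limit into the range of the 8 below. Other class I genes overlapped between the sets, *H2-K1* at 9.89 to 14.1 against 8.65 to 29.2 CPM, *H2-Q4* at 13.8 to 18.1 against 4.13 to 18.0 CPM, *H2-Q7* at 0.943 to 1.73 against 1.10 to 2.66 CPM and *H2-T23* at 1.11 to 1.32 against 0.474 to 2.05 CPM.

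Of 4518 fitted genes with a mean of at most 1 CPM over the controls, 15 did not overlap between the sets, 5 of them among 229 such genes of chromosome 17. These genes too could pass the filter on low counts through the libraries above the limit alone. Of the 5, *Gm9705* is described above and *Gm10499* and *Gm20522* were picked after their values were seen, as was *Rpl3l*, which overlapped. The pseudogene *Gm10499*, at chr17:36141758-36145923, measured 0.185 to 0.813 CPM against 0 to 0.123 CPM. The antisense gene *Gm20522* measured 0.948 to 1.36 against 0.242 to 0.637 CPM. *Rpl3l*, a paralogue of the ribosomal protein gene *Rpl3* that lies next to *Rps2* at chr17:24727820-24736143, measured 0.389 to 1.07 against 0.0161 to 0.509 CPM, and its ranges overlapped through a single library, E6.0 replicate 2. It had 4 UMIs there.

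**Figure D3:**
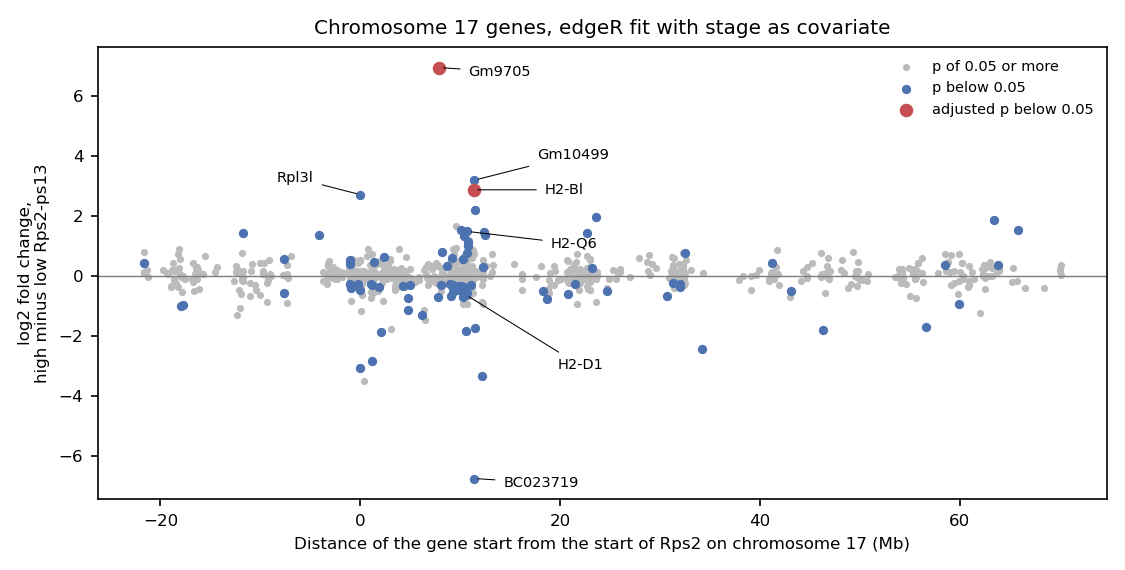
Each point is a gene of chromosome 17, placed by the distance of its start from that of *Rps2* in Mb and by its log2 fold change (libraries above the limit minus those below) in the edgeR fit with stage as covariate. Red points passed an adjusted p of 0.05 (*Gm9705* and *H2-Bl*), and blue points had an unadjusted p below 0.05. The other labelled genes were picked after their values were seen, so where the labels lie is no result. In this fit 10.2% of tested genes on chromosome 17 had an unadjusted p below 0.05, against 7.6% of all genes tested. The share was also 10.2% on chromosome 19, and it was 9.08% on chromosome X.

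Other pseudogenes were searched for steps of the same kind. The search took the 499 pseudogenes that reached at least 10 CPM in a control or averaged above 1 CPM over the controls. Of these, 487 matched a protein-coding transcript. The gene *Gm17352*, a copy annotated as coding, was added after its values were seen, so 488 features were compared. A step was defined as a gap of at least 4-fold in CPM + 1 between neighbouring control libraries, in a feature that reached at least 10 CPM. Beside *Rps2-ps13*, whose step the rule fixed, 17 features had one, and 0 of the 17 had their largest gap between the 4 libraries and the 8. *AL807777.1*, whose ranges did not overlap, had its largest gap between 63.8 and 483 CPM, inside the 4. Leaving out *Gm8841* as well, since it can exchange reads with *Rps2-ps13*, 4 of 16 features with a step had their closest coding match on chromosome 17, against 38 of 486 matched features. *Gm17352*, added for its values, is among the 4, and the 486 include features below 10 CPM, which could have no step. These counts are thus no support for a larger share of chromosome 17.

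A set of 3 of these copies was high in all 4 libraries above the limit and in the 5 controls with *Gm8841*, and low in the 3 that were low in both. *Gm17352*, most like *Rps18* (chr17:33951999-33956001; 99.1% identity), measured 965, 930, 719 and 713 CPM in the 4 libraries, 292 to 851 CPM in the 5 and 0.601 to 7.76 CPM in the 3. *Gm15487*, most like the proton pump subunit gene *Atp6v0c* (chr17:24163866-24169702; 99.8%, 1 mismatch), measured 164, 206, 133 and 143 CPM, then 74.7 to 241 CPM and 7.71 to 8.63 CPM. *AC162391.1*, most like the splicing gene *Rnps1* (chr17:24414565-24425901; 99.4%), measured 60.1, 57.8, 43.4 and 40.1 CPM, then 30.1 to 95.5 CPM and 5.16 to 5.93 CPM. The late *Mesp1* KO library held the high level of all 3 (1003, 95.1 and 36.1 CPM), and the E6.5 and E7.0 KO libraries the low one. The parents lie on chromosome 17, but these copies lie on chromosomes 13 and 6.

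Of the 3 parent genes, 1 was lower in every control with a high copy. *Atp6v0c* measured 135 to 391 CPM in the 9 controls with its copy and 452 to 558 CPM in the other 3. *Rps18* measured 480 to 2190 CPM in the 9 and 1889 to 2349 CPM in the 3, with an overlap through E7.75 replicate 1. *Rnps1* measured 192 to 365 against 268 to 298 CPM, and overlapped. In the 196 cells of late E7.5 replicate 2, all 3 copies were at the high level, *Gm17352* at 526 against 0.972 CPM in the other cells of the library, *Gm15487* at 169 against 5.70 CPM and *AC162391.1* at 41.6 against 5.47 CPM. *AL807777.1* measured 14.2 CPM in them and *H2-Bl* 0.431 CPM (2 UMIs), both inside the ranges of the libraries below the limit, and *Gm8841* 10.1 CPM.

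*BC023719*, at chr17:36111426-36117121 in the MHC, followed *Gm8841* and not *Rps2-ps13*. It measured 35.6, 29.9, 25.1, 17.5 and 22.4 CPM in the 5 controls with *Gm8841*, 19.7 CPM in the late *Mesp1* KO library and at most 0.321 CPM in every other library.

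Of the other copies, *Gm17709* and *Gm14292* did not overlap between the sets, and *Gm13841* and *Gm10116* did. *Gm17709*, most like *Odc1* on chromosome 12 (97.8%), measured 8.40, 0.432, 3.81 and 2.99 CPM against 0.127 to 0.399 CPM, with late E6.0 again close to the libraries below, as for *AL807777.1*. With stage and experiment its log2 fold change was 3.87 (SE 0.94; adjusted p = 0.967) in edgeR and 3.88 (SE 0.91; adjusted p = 0.0154) in DESeq2, and since it was picked for its values the DESeq2 call is no support. *Gm13841*, most like *Rpl29*, measured 59.3, 42.2 and 39.3 CPM in E6.0 replicate 3, late E6.0 and late E6.5, but 0.0523 CPM in late E7.5 replicate 1, and it reached 28.0 CPM in E6.0 replicate 1. *Gm14292*, most like *Wtap* (chr17:12966796-12994169; 99.3%), measured 1.08 to 3.03 CPM against 0.0323 to 0.891 CPM. *Gm10116*, a ferritin-like copy, did not follow the split, at 2.16 to 16.8 CPM against 1.39 to 24.8 CPM.

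**Figure D4:**
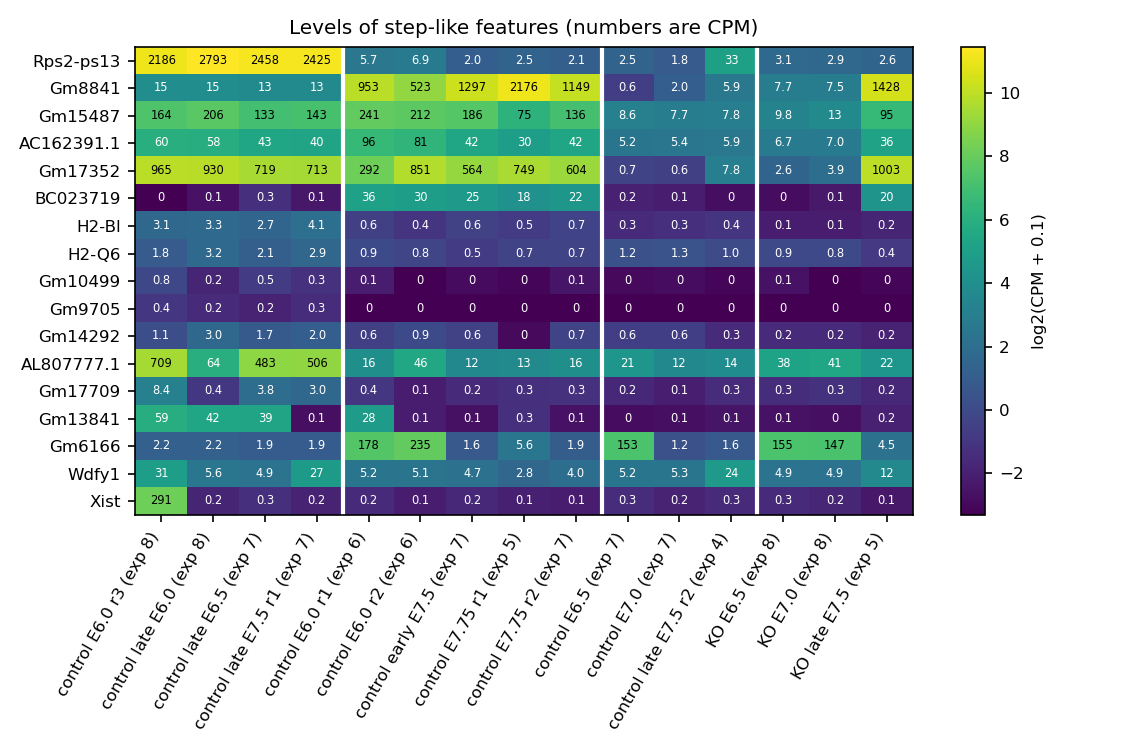
Colour gives the level of each feature as log2(CPM + 0.1) and the numbers give CPM, with libraries in the order of the bars of *Rps2* and its copies and white lines between the 4 sets. *Rps2-ps13* and *H2-Bl* are high only in the 4 controls at the left. *Gm15487*, *AC162391.1* and *Gm17352* are high in the left 9 controls and the late *Mesp1* KO library. *Gm8841* and *BC023719* are high in the 5 controls beside the left 4 and in that KO library. *Gm9705* rests on few UMIs, and its 0 in E6.0 replicate 2 allowed up to 0.382 CPM, so its row shows no level particular to the 4.

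Ribosomal protein genes were listed by symbol, as Rpl or Rps followed by a number. In edgeR's fit with stage and experiment, 0 of the 93 genes so listed passed, with a median log2 difference of 0.11 and 74 positive, against a median of -0.004 and 8535 of 17337 positive over all genes tested. The symbols also took in 11 genes that encode no ribosomal protein, the Rps6k kinase genes and *Rps19bp1*. Without these the median was 0.16 with 68 of 82 positive and 0 called, and the summed level was 196211 to 228492 CPM in the 4 libraries and 130503 to 329432 CPM in the 8. Pseudogenes were listed by the same symbols with -ps, so copies named otherwise, such as *AL807777.1* and *Gm8841*, were not in that list. Of the 208 pseudogenes so listed, *Rps2-ps13* not counted, 111 passed the filter on low counts and 0 were called in edgeR. Of these 111, 102 had a positive difference, with a median of 0.63, and 18 stood higher and 0 lower at an unadjusted p below 0.05, against 2.28% higher of all genes tested. A copy could pass that filter through the libraries above the limit alone, so these counts do not support a difference of the list. DESeq2 with the same covariates called 1 of the 82 genes, *Rpl3l*, higher, and 0 of the pseudogenes so listed, against 0.098% higher of all genes with an adjusted p. The summed level of the listed pseudogenes overlapped, at 646 to 1800 CPM against 462 to 1632 CPM.

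In edgeR's fit with stage and experiment, where the embryos above the limit were the younger ones, 0 genes of any of the 14 marker lists were called. DESeq2 with the same covariates called 5 of the 71 listed genes, against 0.098% higher and 0.19% lower of all genes with an adjusted p. Of the 5, *Eomes* and *Mixl1* of the primitive streak list and *Mesp1* of the mesoderm list were higher and *Actc1* and *Myl4* of the cardiomyocyte list lower. In the edgeR fit, at an unadjusted p below 0.05 and a lower level, stood 4 of 5 cardiomyocyte genes, 3 of 4 allantois genes, 3 of 5 neural and surface ectoderm genes and 1 of 5 each of blood and endothelium genes, against 2.33% of all genes tested. The median log2 differences of these lists were -2.0, -2.53, -0.74, -1.77 and -1.15, beside -0.004 over all genes. At an unadjusted p below 0.05 and a higher level stood 2 of 5 primitive streak genes (median 1.13), 1 of 5 extra-embryonic ectoderm genes (median 1.13) and 1 of 5 epiblast genes (median 0.68), against 2.28% of all genes tested. Of the other 6 marker lists, mesoderm was mixed, with 1 of 6 genes higher and 1 lower, 3 positive and a median of -0.176. Definitive endoderm (median 0.255) and node and notochord (median -0.18) had 1 of 5 genes lower each. Visceral endoderm, parietal endoderm and maternal decidua had 0 in either direction. For every list the summed levels of the 4 and the 8 libraries overlapped. The summed level of cardiomyocyte genes, for one, was 39.0 to 88.3 CPM against 17.9 to 965 CPM. In such sums fewer cells of a type and less RNA per cell cannot be told apart. Early response genes such as *Fos* and *Egr1*, which rise when tissue is dissociated, had a median of -0.73 with 0 of 10 called. Maternal decidua genes summed to 2.22 to 7.59 CPM against 4.01 to 25.6 CPM.

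Properties of the libraries were compared between the 4 and the 8 by two-sided exact permutation tests, of which the smallest p possible is 0.00404. The median mitochondrial share per cell was 1.85% ± 0.123 (SD, n = 4) above the limit and 1.61% ± 0.168 (SD, n = 8) below it (exact p = 0.0364, adjusted over 8 properties 0.291). Within experiment 7 it was 1.8% in late E6.5 and 1.7% in late E7.5 replicate 1, and 1.49% to 1.55% in the 4 libraries below the limit, without overlap. Stage and experiment differ between the 4 and the 8, and the permutation did not hold them fixed. Median UMIs per cell were 26628 ± 6535 and 19838 ± 7759 (exact p = 0.158). Cells with an eGFP UMI made up 9.62% ± 2.60 and 9.31% ± 3.72 (exact p = 0.909) and cells with an Ai14 UMI 13.8% ± 7.96 and 17.8% ± 8.79 (exact p = 0.477). None passed after adjustment. Ai14 was at 1.28 CPM in late E7.5 replicate 1 and at 1.36 CPM in early E7.5, 1 library on each side of the limit, and at 12.3 CPM or more in the other controls.

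Sex did not follow the split. *Xist*, which is expressed from the inactive X chromosome, measured 291 CPM in E6.0 replicate 3 and at most 0.300 CPM in every other control, and *Ddx3y* was at 0 there, with up to 0.406 CPM allowed. So 1 of the 4 libraries above the limit and 0 of the 8 below had the pattern of a female embryo, although *Rps2-ps13* and *AL807777.1* both lie on chromosome X. Of 4 genes known to differ between C57BL/6 sub-strains, *Wdfy1* measured 31.0 CPM in E6.0 replicate 3, 26.6 CPM in late E7.5 replicate 1 and 24.1 CPM in late E7.5 replicate 2, and 2.78 to 5.56 CPM in the other 9 controls. It was thus high in 2 of the 4 libraries above the limit and in 1 of the 8 below. *Nnt* measured 13.1 to 14.4 against 10.2 to 16.2 CPM, and 0 of the 4 genes were called. The genotypes of the embryos at these loci were not tested.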

How the data were processed

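Single-cell RNA-seq of 15 whole mouse embryos, 12 control and 3 *Mesp1* KO, was re-analysed from UMI counts per gene and barcode. The authors made these deposited counts with Cell Ranger 3.0.2 on mm10 with eGFP and Ai14 sequences added. The counts carry no depth normalization. Barcodes with under 10% mitochondrial UMIs, under 50000 UMIs and 200 to 7000 genes were kept and summed per library, and CPM is per 1000000 of these UMIs. Doublets were not called. Groups came from the labels, and libraries, not cells, were the replicates. The paper's stages and experiment numbers were covariates. Members and gene lists were chosen with earlier results of these data known. Genes named were those of the fixed lists, *Rps2* and its annotated copies, *AL807777.1*, *Gm10116* and called genes (at most 15 per direction in the fit with stage and experiment). All other named genes and the count of non-overlapping genes were chosen after values were seen.

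Summed counts of the 12 controls were tested with edgeR 4.0.16 (quasi-likelihood, TMM, filterByExpr by the split, covariates stage and experiment, 4 residual degrees of freedom) and Benjamini-Hochberg adjustment. DESeq2 1.42.0 was an alternative. Scripts were tested on simulated data. p-values measure the spread between embryos, which share litters to an unknown degree. Gene positions and transcripts are from GENCODE M21 (GRCm38, the mm10 assembly), and copies were matched to coding transcripts with blastn 2.17.0 over at least 50% of their length. Cell Ranger's gene names differ from GENCODE M21 for some features, which were joined by gene ID. A read from a near-identical copy can be counted for the wrong locus, so the levels of copies and parents are uncertain. Replicate numbers did not pair libraries (correlations of deviations -0.51 to 0.18 for 6 same-numbered pairs, -0.19 to 0.51 for 10 others). Alternatives were other tools, filters, covariates, cell limits, thinning to 2000 UMIs and leaving out each library.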

Additional observations from a re-analysis of the deposited data

Results flagged for a closer look

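Of 52 groups of libraries over 26 features, *Rps2-ps13*, *Rps2* and *Gm8841* left out, 8 held a library far from the others by Dixon's criterion. In features not picked for their values, chance does this in about 1 of 20 groups. Many of the 26 were picked after their values were seen, so the 8 are no measure of an excess. Each is given as a value.

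Among the 8 controls below the limit, *Wdfy1* stood apart in late E7.5 replicate 2, at 24.1 CPM against 2.78 to 5.34 CPM. *AL807777.1* reached 46.1 CPM in E6.0 replicate 2 against 11.8 to 21.2 CPM, and *Rpl3l* 0.509 CPM in the same library against 0.0161 to 0.246 CPM. *Gm13841* reached 28.0 CPM in E6.0 replicate 1 and at most 0.307 CPM in the other 7. E7.75 replicate 1, among the shallowest libraries per cell, held 4147 CPM of *Rps7* against 1154 to 2478 CPM and 14.5 CPM of *Ddx3y* against 29.0 to 32.3 CPM.

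Among the 4 controls above the limit, E6.0 replicate 3 stood apart by 291 CPM of *Xist*, with at most 0.300 CPM in the other 3, and by 0 CPM of *Ddx3y*, with 31.4 to 37.8 CPM in the other 3.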

How the results depend on the processing

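With stage and experiment, 0 genes were called. The count was 47 with DESeq2, 3 with stage only, 4 without covariates and 1 in experiment 7 alone, and 0 to 35 when each library was left out (35 without E7.0, 11 without early E7.5, and 1 each without late E7.5 replicate 1 and without E7.75 replicate 2). On chromosome 17, with 856 genes in the main fit, it was 3, 2, 2 and, leaving out libraries, 0 to 2 (2 without E7.0). It stayed 0 without a filter on low counts, without experiments 4 and 5, at 6300 genes, over all barcodes, at 2000 UMIs per cell, with log2 CPM of *Rps2-ps13* in place of the split, and with the replicate block (0; smallest adjusted p 0.0585). The cause of these changes was not tested.

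With stage only, in alternatives added after seeing the data, the 3 calls became 86 with DESeq2 (14 on chromosome 17), 1 at 2000 UMIs per cell, 0 with the replicate block and 0 to 5 when leaving out libraries (0 without late E7.5 replicate 1, 1 each without late E6.5 and late E7.5 replicate 2, 5 without late E6.0). *AL807777.1* passed in 4 of 22 alternatives to the fit with stage and experiment, *H2-Bl* in 3 of 22, *Gm9705* in 2 of 21 and *Rpl3l* in 1 of 21, always higher.

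Over all barcodes, cells with *Rps2-ps13* made up 86.7% to 96.9% in the libraries above the limit. At 2000 UMIs the other libraries held 0.328% to 1.64%, and, in alternatives added after seeing the data, the *Mesp1* KO levels were 3.91, 3.36 and 2.0 CPM. Likewise added, without the 196 cells, the highest control below the limit held 6.88 CPM. Genes without overlap, also added then, numbered 21 higher and 9 lower at 6300 genes, 14 and 9 over all barcodes, 29 and 8 at 2000 UMIs, and 15 and 5 with a mean above 1 CPM in each set, of which 14 and 5, 10 and 4, 7 and 1, and 15 and 5 were among the first 20 and 7. The mitochondrial difference was 0.192 to 0.287 percentage points when leaving out libraries, and 9 of 12 raised its p above 0.05. UMI depth in the smallest libraries limits genes under 1 CPM, which rest on a few counts.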
